A study of Mus musculus with 13 samples.

Results

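Dichloroacetic acid (DCA) was set against plain drinking water in the livers of male B6C3F1 mice, long after the exposure had ended. The comparison took the 4 arrays labelled DCA and the 4 labelled control, 8 of the 13 arrays of the study, and covered every gene detected (detection p under 0.05) on at least 4 of the 13 arrays, 8431 of 18138. DCA mice were 7 days old at the start, drank DCA at 3.5 g/L for 10 weeks and then deionized water for 90 weeks. Control mice of the same age received deionized water alone. The other 5 arrays came from mice given 0.06% phenobarbital (PB) on the same schedule, and entered the estimate of the variance, the normalization and the choice of detected genes. All mice were males of one hybrid strain, a cross of C57BL/6 and C3H much used in carcinogen tests, whose males often form liver tumours in old age. About 20 mg of archived frozen liver went into each extraction, and the labels do not say whether a piece held tumour, at what hour it was taken or whether the animal had been fed.

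DCA is a by-product of water chlorination and a small carboxylic acid close to pyruvate in shape. It inhibits the pyruvate dehydrogenase kinases, which switch off pyruvate dehydrogenase, the gate through which glucose carbon enters the tricarboxylic acid cycle. The liver breaks DCA down with glutathione transferase zeta (Gstz1), an enzyme of tyrosine catabolism that DCA itself inactivates. In rodents, prolonged high doses enlarge the liver, load it with glycogen and cause liver tumours. The comparison addressed which of these programmes, if any, differed in RNA at the end of the water period. No array is labelled as taken during the exposure, so whether a difference persisted from it was not tested.

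Each array gave a mean bead intensity per gene, which was background-corrected, put on a log2 scale and quantile-normalized. Levels below are such log2 intensities, and differences are DCA minus control in log2 units, ± the standard error of the limma fit. Mean raw intensity was 232 to 462 on DCA arrays and 234 to 388 on control arrays, and 7331 to 8458 genes were detected on DCA arrays against 7200 to 7842 on control arrays. The mean of 17 tested hepatocyte markers was 12.12 to 12.31 in DCA and 12.03 to 12.27 in control. The row for albumin (Alb) was the exception, at 4.34 to 4.88 in DCA and 4.37 to 4.75 in control, near the lowest detected levels of these arrays (4.57 to 4.63). The median correlation between arrays was 0.978 within DCA, 0.966 within control and 0.974 between the groups.

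No gene separated the groups at the threshold. Of 8431 genes, 0 (0%) passed a limma adjusted p under 0.05, and the smallest adjusted p was 0.995, so every gene value below describes these 8 arrays and is not a called change. Without adjustment 369 genes (4.38%) had p under 0.05, 190 higher and 179 lower in DCA. The groups did not overlap on any array for 203 genes (2.41%), 89 higher and 114 lower in DCA. Random labels of 4 arrays against 4 separate a gene at a rate of 0.0286 on average. Neither share was above its average under random labels, so a lack of overlap in genes below is a description only. Slightly fewer genes lay higher in DCA (4133, 49%) than lower (4298), with a median difference of -0.01.

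With the background correction used here, the data bounded most differences within a 2-fold change, but most not within 0.5 log2 units. The median absolute difference over all genes was 0.13. The 95% interval of the difference lay within 1 log2 unit of 0 on both sides, a 2-fold change, for 7600 genes (90.1%), and within 0.5 for 3408 genes (40.4%). The median half-width of the interval was 0.40. A difference over 1 was seen for 37 genes, 20 higher and 17 lower in DCA, and 8 of these had no overlap between the groups. The widest were Gstp2 at 1.86 and Cyp4a14 at -2.58. The size of a difference depended on how background was treated. The median absolute difference was 0.04 with the standard background fit on all rows, 0.06 without background correction and 0.07 in the authors' normalized values, and 19, 12 and 12 genes differed by over 1. In these 3 settings Thrsp had the highest difference (1.94, 1.44 and 1.51), above Gstp2 (1.30, 1.10 and 1.21), and with the standard fit Cish (-1.88) was lower than Cyp4a14 (-1.78). Of 79 genes whose values are given below, 39 differed by over 1.5 times less under at least 1 of the 3 settings, as did the medians of 38 of 44 gene lists, so sizes below hold for the background correction used here.

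**Figure D1:**
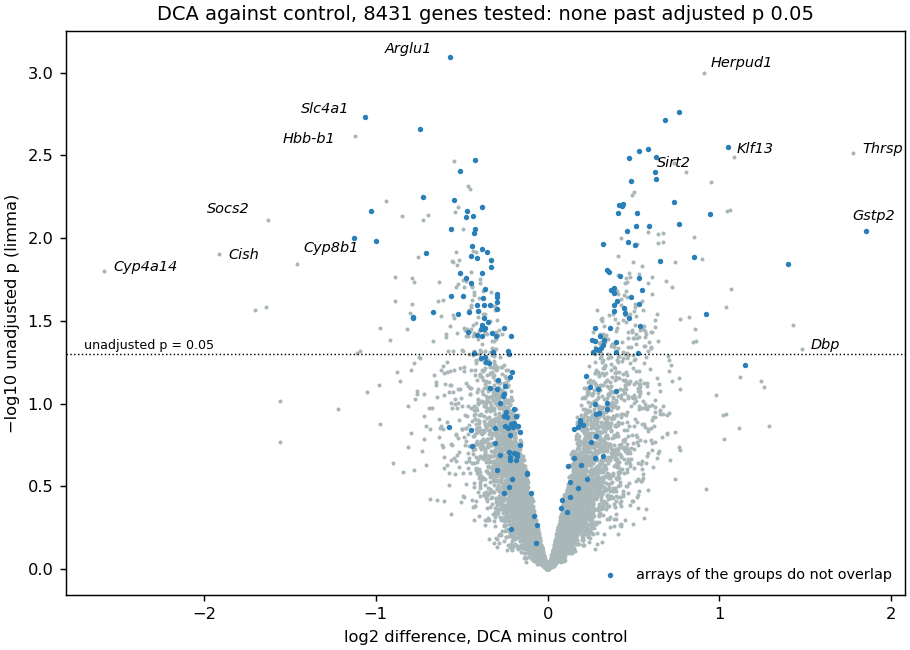
Each point is one of the 8431 genes, with the log2 difference DCA minus control on the x axis and the unadjusted limma p as −log10 on the y axis. The 203 blue points are genes whose DCA and control arrays do not overlap. The cloud is close to symmetric, with Cyp4a14 and Cish furthest left and Gstp2 and Thrsp furthest right.

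The genes of smallest p with the higher mean in DCA had varied roles. Herpud1, which helps to clear misfolded proteins from the endoplasmic reticulum, was at 12.42, 12.67, 12.11 and 12.30 in DCA against 11.53, 11.09, 12.13 and 11.11 in control (0.91 ± 0.22). Control 3 lay within the DCA range and the other control arrays below it. Thrsp, a nuclear protein of liver that promotes fatty acid synthesis, was at 9.05, 10.33, 9.77 and 10.58 in DCA against 8.75, 7.46, 9.17 and 7.25 in control (1.78 ± 0.49, 3.43-fold). DCA 1 lay just under control 3, and controls 2 and 4 were far below the rest. Klf13, a zinc finger transcription factor, was at 8.86, 8.98, 9.24 and 9.04 in DCA against 8.56, 7.31, 8.11 and 7.93 in control (1.05 ± 0.29), with no overlap. Sirt2, a deacetylase of the cytoplasm, was at 6.89 to 7.41 in DCA and 6.32 to 6.77 in control (0.58 ± 0.16), also without overlap. Tsku, a secreted protein of liver, differed by 1.08 ± 0.30, but DCA 1 (6.40) lay below control 1 (6.60).

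Among the 10 genes of smallest p with the lower mean in DCA, 2 were red cell genes, described further on with their list. Arglu1, a splicing and transcription cofactor, had the smallest p of all genes. It was at 8.51, 8.40, 8.67 and 8.61 in DCA against 8.98, 9.12, 9.21 and 9.16 in control (-0.57 ± 0.13), a small difference with tight groups that did not overlap. Camkk2, a calcium-dependent kinase that activates AMP-activated kinase, was at 5.37 to 5.79 in DCA and 5.81 to 6.29 in control (-0.51 ± 0.15). The groups of Camkk2 were separated by only a narrow gap. The 28 genes at the top by p or by size kept their sign under all 19 alternatives of processing and array choice. They were selected on these same arrays, so their signs had little room to change. Of the 28 genes, 18 were over 1.5 times smaller under at least 1 of the 3 other background settings, and 13 without controls 2 and 4. Without those 2 arrays Thrsp differed by 0.97, Herpud1 by 0.54, Klf13 by 0.69, Tsku by 0.64, Upp2 by 0.41, Rsad2 by -0.49 and Slc4a1 by -0.53, while Arglu1 was at -0.55 and Camkk2 at -0.52. With the standard fit Camkk2 differed by -0.11, Sirt2 by 0.30 and Tsku by 0.46, while Arglu1 (-0.67), Herpud1 (0.93) and Klf13 (1.17) were slightly larger.

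**Figure D2:**
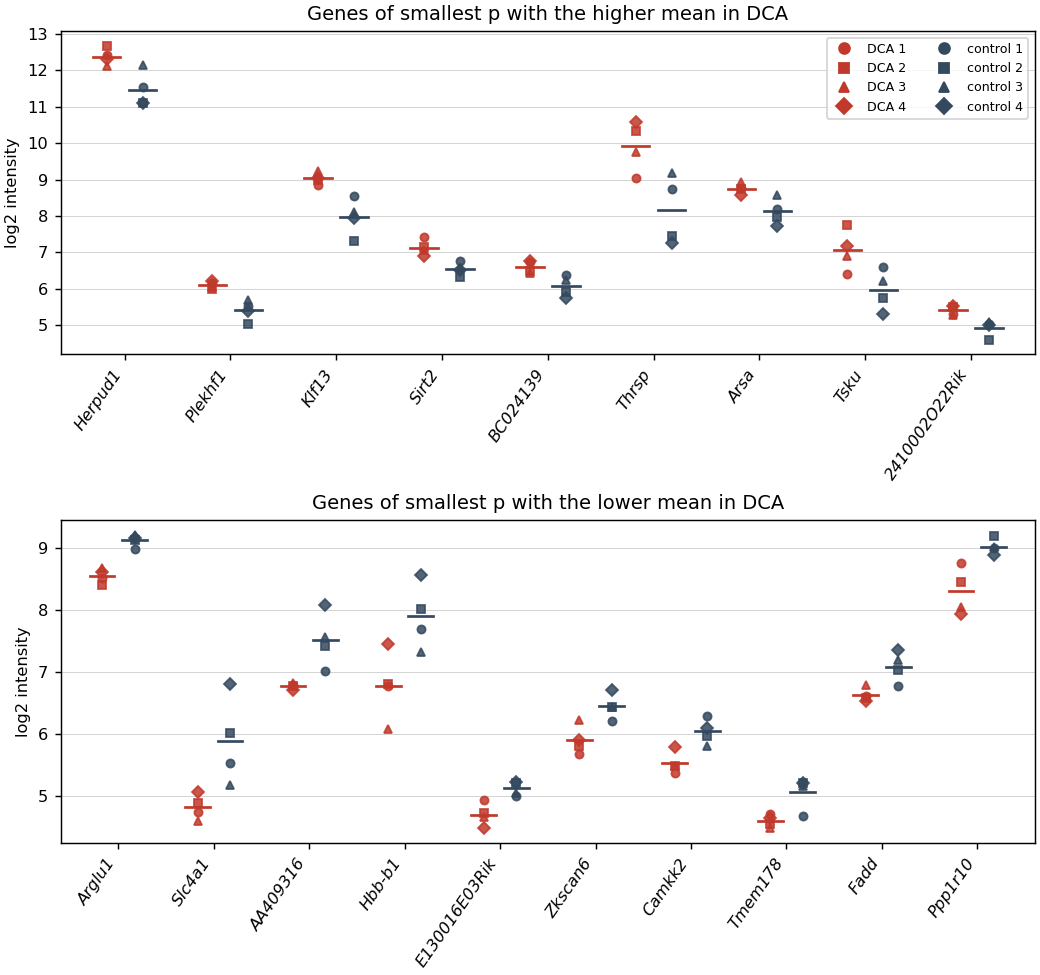
Log2 intensity on each array of genes of smallest p with the higher mean in DCA (top) and with the lower mean (bottom). DCA arrays are red on the left of each pair and control arrays dark on the right, symbols give the array number and bars the group means. Arglu1 and Klf13 show clear gaps, while Herpud1 and Thrsp each overlap through control 3.

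Of the genes of DCA metabolism and tyrosine catabolism, Gstz1, which breaks DCA down, differed by less than its error. It was at 12.30, 12.38, 12.40 and 12.58 in DCA against 12.48, 12.57, 12.45 and 12.29 in control (-0.03 ± 0.12), and the groups overlapped fully. Fah, the last enzyme of tyrosine breakdown, differed by -0.07 ± 0.16 and Hpd, which makes homogentisate, by -0.14 ± 0.28. Pcbd1, which recycles the pterin cofactor of aromatic amino acid hydroxylases, was at 10.25, 9.62, 9.06 and 9.56 in DCA against 9.19, 9.25, 8.96 and 8.67 in control (0.61 ± 0.22), with DCA 3 inside the control range. Qdpr, the other recycling enzyme of that cofactor, differed by 0.09 ± 0.13. Over the 6 tested genes of this list 3 lay higher, with a median of 0.03, and 2 of these had an unadjusted limma p under 0.05. The list's mean was 11.17 to 11.23 in DCA against 10.98 to 11.03 in control without overlap. Of the 44 lists 3 had means without overlap, the others being the NRF2 antioxidant and erythroid lists.

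The genes of the direct target of DCA showed no RNA difference beyond the spread. Pdk1, a pyruvate dehydrogenase kinase, was at 7.13 to 7.60 in DCA and 6.32 to 7.63 in control (0.39 ± 0.30). Pdk2, the kinase most sensitive to DCA, differed by 0.21 ± 0.36, and Pdk4, the kinase induced by fasting, by -0.10 ± 0.32. Pdk4 lay at the lowest detected levels in both groups (4.49 to 4.66 in DCA, 4.41 to 4.88 in control). Pdha1, the catalytic subunit of pyruvate dehydrogenase, differed by 0.24 ± 0.33. Of the 8 tested genes of the complex and its kinases 6 lay higher in DCA, with a median of 0.06. Without controls 2 and 4 only 1 did, with a median of -0.10. Those 2 arrays had the lowest list means, so leaving them out had to lower the difference.

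Further along glucose metabolism the values were mixed. G6pc, the glucose-6-phosphatase that releases glucose, differed by -0.48 ± 0.34, with overlap between the groups. Of 17 genes of glycolysis and gluconeogenesis 11 lay higher (median 0.16, and 0.06 with the standard background fit), and of 9 of glycogen metabolism 4 did (median -0.05). In the tricarboxylic acid cycle 9 of 17 lay higher (median 0.04), and its members went different ways. Idh2, the mitochondrial NADP-linked isocitrate dehydrogenase, was at 8.07, 8.78, 8.61 and 8.76 in DCA against 9.37, 8.78, 9.24 and 9.63 in control (-0.70 ± 0.22). Control 2 met the highest DCA arrays and the other controls lay above them. Sdhb, the iron-sulphur subunit of succinate dehydrogenase, was at 9.06, 8.90, 8.55 and 8.76 in DCA against 8.40, 8.17, 8.51 and 7.83 in control (0.59 ± 0.19), and its groups just failed to meet. Sdhb also belongs to oxidative phosphorylation, where 48 of 64 genes lay higher in DCA (median 0.15, and 0.10 to 0.18 with any one array left out). Without controls 2 and 4 the count was 38 of 64 and the median 0.04. Those 2 arrays had the lowest list means, so leaving them out had to shrink the difference.

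In fat metabolism most genes of synthesis lay higher in DCA. Of 17 genes of fatty acid and triglyceride synthesis 14 lay higher in DCA (median 0.17), and 2 were higher and 1 lower at an unadjusted p under 0.05, which 4.38% of all genes reached. Elovl6, which lengthens palmitate, was at 8.38, 8.89, 8.04 and 8.25 in DCA against 7.79, 7.32, 7.96 and 6.79 in control (0.92 ± 0.38, no overlap). Scd1, the stearoyl-CoA desaturase, differed by 0.31 ± 0.21. Fasn, fatty acid synthase, differed by 0.06 ± 0.19 at levels near the detection limit (4.65 to 4.999 in DCA, 4.47 to 5.10 in control). The enzymes of the last step to triglyceride disagreed, with Dgat2 at 0.54 ± 0.27 and Dgat1 at -0.48 ± 0.21. Without controls 2 and 4, the arrays lowest for Thrsp and for the list's mean, 9 of the 17 lay higher and the median was 0.04. Leaving out the lowest arrays had to shrink the difference.

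PPARA is the nuclear receptor that drives fat oxidation in liver. Of 28 genes of the list of its targets and fatty acid oxidation, which holds the receptor gene too, 9 lay higher and 19 lower in DCA (median -0.08). Without control 1 the count was 15 of 28 higher and the median 0.02, and without controls 2 and 4 it was 5 of 28 and -0.23. Ppara itself was at 6.40 to 6.87 in DCA and 5.42 to 6.83 in control (0.52 ± 0.23). Cyp4a14, a fatty acid hydroxylase and one of the most responsive PPARA targets, was at 5.26, 5.03, 4.50 and 5.22 in DCA against 10.14, 4.47, 6.18 and 9.55 in control (-2.58 ± 0.94). All DCA arrays and control 2 lay close to the detection limit, and controls 1 and 4 alone were high. It was detected on 3 of 4 arrays in each group. Without control 1 its difference was -1.73, and without control 2 it was -3.62.

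**Figure D3:**
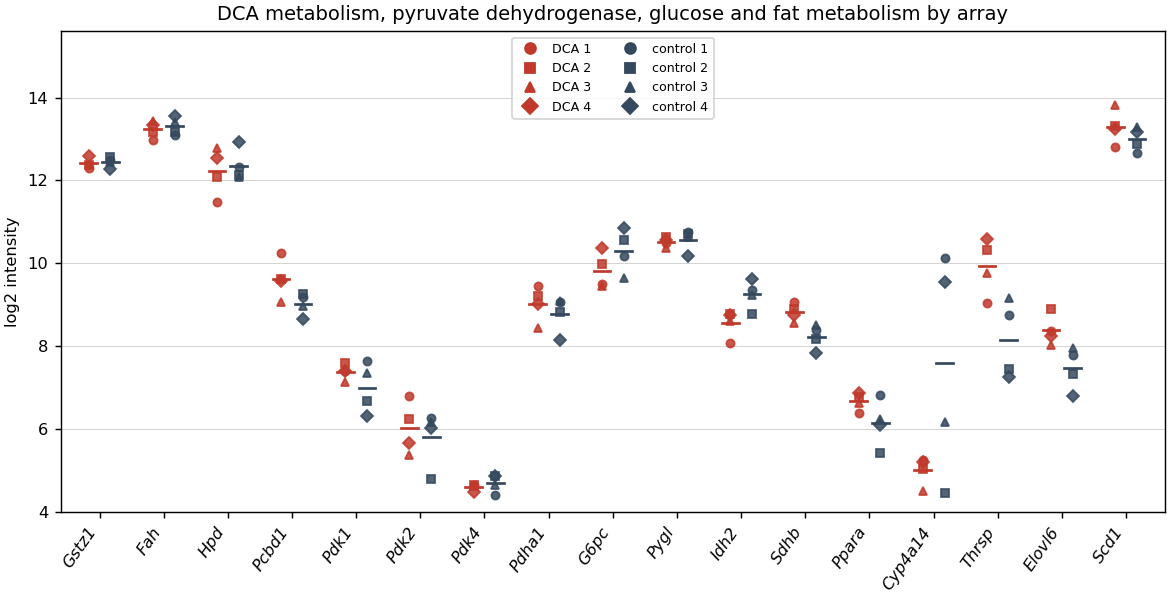
Log2 intensity on each array (y axis) of 17 genes of DCA metabolism, pyruvate dehydrogenase, glucose and fat metabolism, with DCA arrays on the left and control arrays on the right of each pair. Gstz1 overlaps fully, Elovl6 does not overlap, and for Cyp4a14 controls 1 and 4 stand near 10 while all DCA arrays lie near 5.

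Most genes of the unfolded protein response lay higher in DCA. This response is switched on when proteins misfold in the endoplasmic reticulum: the sensors Ire1, Perk and Atf6 send the factors Xbp1, Atf4 and Atf6 to the nucleus, which raise chaperones and degradation genes.

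Of 22 tested genes of the unfolded protein response 17 lay higher in DCA, with a median of 0.31 (0.20 without control 4, 0.51 without DCA 3), against a median of -0.01 over all genes. The list median was 0.19 with the standard background fit, 0.16 without background correction and 0.17 in the authors' values. Without adjustment 4 members had p under 0.05 on the higher side and 1 on the lower, beside 4.38% of all genes in both directions together. Hyou1, a chaperone of the endoplasmic reticulum, was at 7.44, 7.10, 5.66 and 6.54 in DCA against 6.14, 5.67, 5.26 and 5.50 in control (1.04 ± 0.33), with DCA 3 between the controls, and its difference was 0.38 with the standard fit. Calr, the calcium-binding chaperone calreticulin, was at 9.86, 7.73, 6.76 and 7.44 in DCA against 7.58, 7.71, 6.33 and 5.69 in control (1.12 ± 0.57). DCA 1 was far above all others, and without it the difference was 0.48. Creld2, a secreted stress protein, was at 8.18, 8.88, 7.11 and 8.36 in DCA against 7.66, 8.03, 6.61 and 6.80 in control (0.86 ± 0.37). DCA 3 was again the lowest of its group.

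Hspa5, the master chaperone BiP, had a difference of 0.29 ± 0.22. Its row lay near the detection limit (4.62 to 5.89 in DCA, 4.65 to 5.17 in control), so little can be read from it. Atf4, the factor of the Perk arm, was at 8.24 to 8.75 in DCA and 8.86 to 9.15 in control (-0.38 ± 0.13, no overlap). Among genes known as targets of this arm, Chac1 differed by 0.13 ± 0.46, Trib3 by 0.01 ± 0.43, Ddit3 by -0.00 ± 0.35 and Myd116 by -0.09 ± 0.20.

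The list's mean was 8.28, 8.32, 7.74 and 8.18 in DCA against 7.99, 8.01, 7.67 and 7.48 in control, so DCA 3 lay among the controls. DCA 3 and control 4, the lowest of their groups, were also the dimmest of their groups in raw intensity (232 and 234). Among the other controls the order was not the same, since control 3 was the brightest (388) with a low mean and control 2 was dim (254) with the highest, and the part of brightness in this difference was not tested. Of 16 heat shock genes, a list that also holds the mitochondrial chaperones Hspd1, Hspe1 and Hspa9, 14 lay higher in DCA (median 0.17, 0.07 without DCA 2 and 0.09 with the standard background fit), and the other 2 were Hspa9 (-0.13) and Hspd1 (-0.01). Dnajb1, a partner of Hsp70, was at 8.97 to 9.84 in DCA and 8.45 to 8.88 in control (0.54 ± 0.23, no overlap), and Stip1, which joins Hsp70 to Hsp90, differed by 0.60 ± 0.26. Without controls 2 and 4 the counts were 15 of 22 for the unfolded protein response (median 0.30) and 10 of 16 for heat shock (median 0.08).

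All 14 tested clock genes lay higher in DCA, with a median of 0.47, and controls 2 and 4 were the lowest arrays. The list's mean was 7.26 to 7.75 in DCA against 7.49, 5.92, 7.59 and 6.91 in control. The liver clock turns over each day, and its output genes swing widely with the hour and with feeding. Dbp, an output factor of the clock, was at 11.22, 11.43, 12.11 and 11.56 in DCA against 11.50, 7.38, 11.58 and 9.96 in control (1.48 ± 0.68). Usp2, a clock-driven protease, was at 7.94, 8.64, 8.89 and 8.79 in DCA against 8.68, 4.72, 8.68 and 7.14 in control (1.26 ± 0.66). Controls 1 and 3 lay inside the DCA range for both genes, and control 2 was lowest. Per2, a repressor of the clock, was at 8.21, 9.02, 8.52 and 8.24 in DCA against 7.58, 6.63, 8.53 and 6.97 in control (1.07 ± 0.41). Upp2, a liver uridine phosphorylase, showed the same 2 arrays low, at 10.09, 10.18, 10.29 and 10.37 in DCA against 9.90, 7.10, 9.74 and 8.58 in control (1.40 ± 0.50, no overlap). The median of the clock list was 0.24 with the standard background fit and 0.27 without control 2. Without controls 2 and 4 together 8 of 14 lay higher, with a median of 0.05. Leaving out the 2 lowest arrays, a choice made after the values were seen, had to shrink the difference.

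Controls 2 and 4 also stood above the other arrays for several single genes, of which Spon2 and Egr1 were chosen after their values were seen. Spon2, a secreted matrix protein, was at 7.18, 7.29, 7.57 and 6.47 in DCA against 7.33, 9.98, 7.68 and 10.34 in control (-1.70 ± 0.69). Gadd45g, a stress-induced growth arrest gene, was at 8.92, 7.51, 7.82 and 7.85 in DCA against 9.13, 10.54, 8.01 and 10.98 in control (-1.64 ± 0.66). Controls 1 and 3 again sat near the DCA arrays. Cdkn1a, the cell cycle inhibitor p21, was at 4.81 to 5.15 in DCA against 4.94, 7.11, 4.90 and 6.78 in control (-0.97 ± 0.42), and Dnmt3b, a de novo DNA methyltransferase, was at 4.89 to 5.42 in DCA against 5.09, 6.93, 5.48 and 6.67 in control (-0.82 ± 0.35). Egr1, an immediate early factor, was at 5.87, 6.42, 7.65 and 5.51 in DCA against 7.31, 8.49, 7.00 and 8.49 in control (-1.46 ± 0.52). Leaving out controls 2 and 4, by which these genes are grouped here, had to shrink the differences. The differences without them were -0.38 for Spon2, -0.54 for Gadd45g, 0.04 for Cdkn1a, -0.06 for Dnmt3b and -0.79 for Egr1.

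Of the genes under growth hormone, Socs2, Cish and Bcl6 differed by over 1. Pulses of growth hormone activate Stat5 in male liver, which raises Socs2 and Cish, inhibitors of the same signal, and holds down Bcl6, a repressor of female-biased genes. Socs2 was at 9.26, 8.85, 7.95 and 7.79 in DCA against 10.38, 9.44, 9.002 and 11.51 in control (-1.63 ± 0.52). Cish was at 9.34, 7.85, 7.20 and 6.10 in DCA against 9.59, 9.89, 8.89 and 9.76 in control (-1.91 ± 0.67). In both genes DCA 1 alone reached the control range. Bcl6 was at 8.99, 8.78, 8.18 and 9.21 in DCA against 6.08, 7.78, 8.93 and 7.39 in control (1.24 ± 0.64), where control 3 lay among the DCA arrays. Socs3, an inhibitor of cytokine signals, differed by -0.78 ± 0.29. Socs2 and Cish kept differences of -1.23 and -1.62 without controls 2 and 4. Over the 14 genes of the growth hormone and IGF axis 6 lay higher, with a median of -0.06.

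Sex-biased genes were set apart by a different pair of control arrays. The mean of 14 female-biased genes was 5.88, 5.54, 5.67 and 6.11 in DCA against 7.37, 5.30, 5.54 and 7.12 in control, so controls 1 and 4 stood above all others. The mean of 22 male-biased genes was 10.49, 10.58, 10.15 and 10.05 in DCA against 9.55, 10.42, 10.44 and 9.59 in control, with the same 2 arrays lowest. Of the male-biased genes 21 lay higher in DCA (median 0.27, 0.13 without control 4 and 0.16 with the standard background fit), and of the female-biased genes 2 did (median -0.36, -0.05 without control 1 and -0.07 with the standard fit). Hsd3b5, a male-specific steroid dehydrogenase, was at 10.46 to 11.51 in DCA against 7.44, 11.54, 11.50 and 9.57 in control (0.92 ± 0.91). Cyp2b9, a female-biased P450, was at 5.39, 5.07, 4.43 and 7.00 in DCA against 9.63, 5.47, 5.20 and 7.83 in control (-1.56 ± 0.87). Cyp4a14, itself higher in females, had the same 2 high arrays. Hamp2, a hepcidin gene, went against its list, at 8.67 to 9.69 in DCA and 7.28 to 9.10 in control (0.98 ± 0.53).

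Among xenobiotic enzymes some glutathione transferases stood out. Gstp2, of the pi class that conjugates electrophiles, was at 8.75, 7.60, 7.98 and 8.37 in DCA against 6.52, 6.99, 5.87 and 5.90 in control (1.86 ± 0.61, 3.62-fold). Every DCA array was above every control array, and the difference was 1.98 without controls 2 and 4. Gsta2, of the alpha class, was at 8.27, 8.03, 7.91 and 7.65 in DCA against 7.09, 6.16, 7.22 and 6.78 in control (1.15 ± 0.56, no overlap), and Gsta1 differed by 1.04 ± 0.62. Gstp1, the main pi-class gene of male liver, differed by 0.41 ± 0.39. Gstp1 and Gstp2, and Gsta1 and Gsta2, are near-identical copies whose probes may share signal. PB mice spanned 6.84 to 10.59 for Gstp2, a range that holds all DCA arrays. Of 26 genes of the NRF2 antioxidant list 17 lay higher (median 0.05), with a list mean of 8.85 to 8.95 in DCA and 8.48 to 8.84 in control. Gsta2, Gsta1, Gstp1, Cat and Gclm lay higher by over 0.30. The other members, which include the list's mu-class and remaining alpha-class transferases, lay within 0.30 of 0. Nr1i3, the receptor CAR that responds to phenobarbital, was at 8.54, 8.03, 7.38 and 8.41 in DCA against 9.50, 8.53, 9.06 and 8.66 in control (-0.85 ± 0.27), with DCA 1 just above control 2. Of 21 genes of the CAR and PXR list, both receptors included, 16 lay higher with a median of 0.03. These became 6 of 21 and -0.16 without controls 2 and 4.

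Cyp8b1, the sterol hydroxylase that sets how much cholic acid is made, stood alone in bile acid synthesis. It was at 11.47, 11.19, 10.64 and 11.24 in DCA against 12.39, 12.07, 11.76 and 12.33 in control (-1.001 ± 0.34), with no overlap. Of 15 genes of bile acid synthesis and transport 7 lay higher, with a median of -0.04. Cyp7a1, the rate-limiting enzyme, was at 10.54 to 11.26 in DCA against 11.46, 8.59, 11.42 and 10.73 in control (0.36 ± 0.51). Control 2 was the low array there too.

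Red cell genes leaned lower in DCA. The mean of 10 erythroid markers was 6.63, 6.43, 6.40 and 6.78 in DCA against 6.88, 7.10, 6.81 and 7.31 in control. The means did not overlap, as in 3 of the 44 lists. Of the 10 markers 3 lay higher in DCA (median -0.63, and -0.78 to -0.47 with any one array left out). The median was smaller under each other background setting, at -0.11 with the standard fit, -0.21 without background correction and -0.24 in the authors' values. Without controls 2 and 4 it was -0.31. Hbb-b1, an adult beta globin, was at 6.77, 6.81, 6.08 and 7.44 in DCA against 7.69, 8.01, 7.32 and 8.56 in control (-1.12 ± 0.30), and its near-identical copy Hbb-b2, which can share signal, differed by -1.03 ± 0.32. Hba-a1, alpha globin, differed by -0.89 ± 0.35. Slc4a1, the anion exchanger of red cells, was at 4.73, 4.88, 4.60 and 5.06 in DCA against 5.53, 6.01, 5.18 and 6.80 in control (-1.06 ± 0.28), close to the detection limit, and differed by -0.20 with the standard background fit. Alas2, the heme synthesis enzyme of red cell precursors, was among the 3 members on the other side, at 0.55. In bulk tissue fewer cells of a type and less RNA per cell cannot be told apart.

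Platelet and neutrophil markers were highest on controls 2 and 4. The mean of 7 platelet markers was 4.69 to 4.72 in DCA against 4.62, 5.17, 4.73 and 6.80 in control, and the list median of -0.69 became -0.07 without control 4 and -0.17 with the standard background fit. Gp9, a platelet glycoprotein, was at 4.74 to 5.05 in DCA against 4.74, 5.37, 4.88 and 7.41 in control. The mean of 8 neutrophil markers was 5.59 to 5.99 in DCA against 5.57, 7.63, 5.63 and 6.62 in control, and the list median of -0.48 became -0.05 without control 2. With control 2 kept it was -0.42 without control 4 and -0.28 with the standard fit. S100a8, a neutrophil calcium-binding protein, was at 5.03 to 5.95 in DCA against 4.55, 7.34, 5.002 and 7.48 in control. Macrophage markers were highest on control 2 as well (7.46, against 6.33 to 6.58 on DCA arrays and 6.08 to 6.22 on the other controls). The part of these cells in the differences of immune genes was not tested.

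Of 32 interferon response genes 27 lay lower in DCA (median -0.21, and -0.31 to -0.17 with any one array left out). The median was -0.08 with the standard background fit, -0.09 without background correction and -0.10 in the authors' values. Rsad2, an antiviral enzyme induced by interferon, was at 6.59, 6.59, 6.39 and 6.61 in DCA against 7.11, 7.89, 6.95 and 8.74 in control (-1.13 ± 0.38), with no overlap. Ifit3, another induced antiviral gene, differed by -0.61 ± 0.24 and Tap1, a peptide transporter of antigen presentation, by -0.44 ± 0.17. Ifi35 was the exception of some size, at 0.51 ± 0.20. The list's mean was 6.59 to 6.82 in DCA against 6.93, 7.10, 6.66 and 7.14 in control, so control 3 lay with the DCA arrays. Without controls 2 and 4, which were the highest, 19 of 32 lay lower and the median was -0.09. Of 9 MHC class II genes 8 lay lower (median -0.30, and -0.09 with the standard fit), but without controls 2 and 4 only 2 did. Of 24 acute phase genes 17 lay lower (median -0.28, and -0.08 without DCA 3 or without control 2), and without controls 2 and 4 the count was 13 and the median -0.02.

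**Figure D4:**
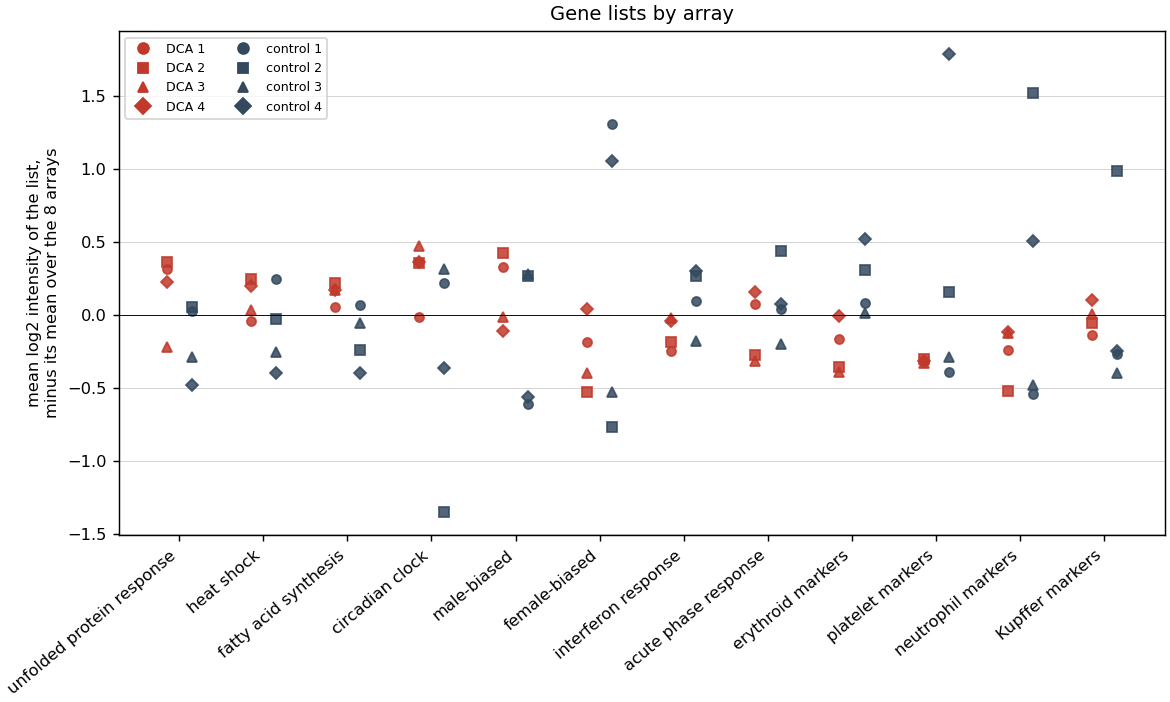
Mean log2 intensity of 12 gene lists on each array (y axis), after subtracting the mean of the list over the 8 arrays, with DCA arrays on the left and control arrays on the right of each pair. Control 2 is lowest for the clock and highest for neutrophil and macrophage markers, control 4 is highest for platelet markers, and controls 1 and 4 are highest for female-biased genes. The DCA arrays lie closer together than the control arrays in every list shown but the unfolded protein response.

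Lists on growth and tumours were near the median of all genes. Of 17 oncofetal and liver tumour genes 6 lay higher in DCA (median -0.08), of 17 oncogenes and tumour suppressors 7 did (median -0.06), and of 15 cell cycle genes 7 did (median -0.06). Of 15 p53 targets 10 lay higher (median 0.07), among them Gadd45a, a growth arrest gene, with controls 2 and 4 lowest, at 6.79, 6.47, 6.06 and 5.95 in DCA against 5.56, 5.02, 5.88 and 5.04 in control (0.95 ± 0.30, no overlap, and 0.22 with the standard background fit). Its relative Gadd45g lay on the other side, as given above. Of 19 genes of the methionine cycle and DNA methylation 8 lay higher (median -0.06), and of 23 histone modifiers 14 did (median 0.05). Igf2, Gpc3 and Ctnnb1, genes often altered in liver tumours, had differences within their errors, with Igf2 at -0.14 ± 0.76, Gpc3 at -0.08 ± 0.38 and Ctnnb1 at -0.00 ± 0.17. In all, 751 distinct genes of the 44 lists were tested, 0 of them passed the adjusted threshold, and in 20 lists the sign of the median turned when some single array was left out.

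**Figure D5:**
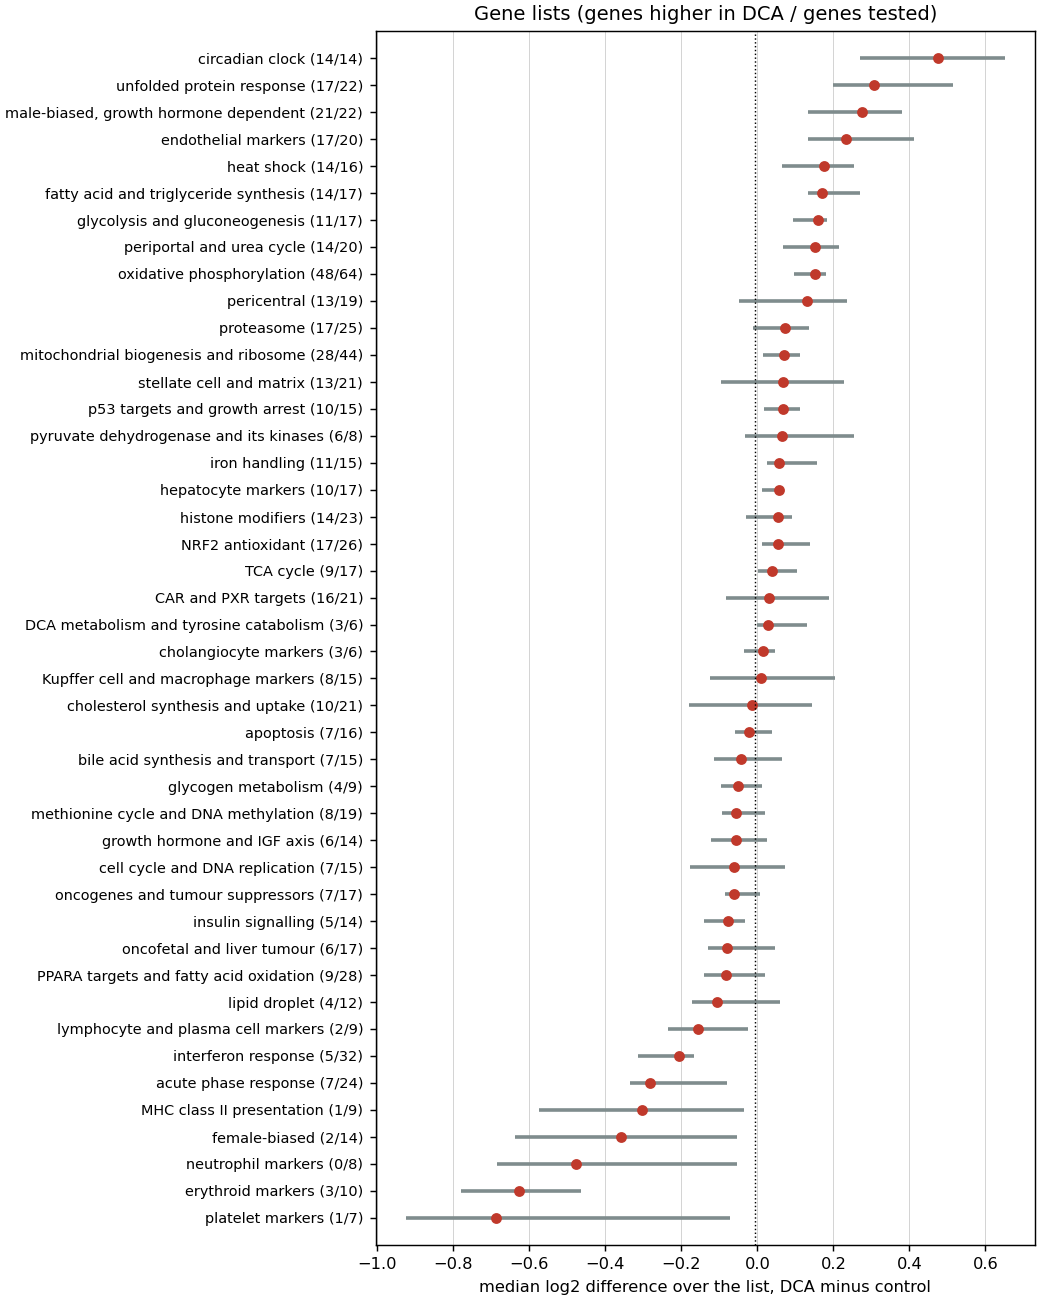
Median log2 difference DCA minus control of the tested genes of each list (red point, x axis) with the range of that median when each array is left out in turn (grey bar). Numbers in brackets are genes higher in DCA over genes tested, and the dotted line is the median of all 8431 genes. The clock list stands highest and the platelet list lowest, and both have long bars.

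The DCA arrays lay somewhat closer to one another than the control arrays did. The root mean square distance of an array to its group centre over all genes was 0.341, 0.220, 0.365 and 0.244 in DCA against 0.431, 0.346, 0.291 and 0.414 in control. The groups overlapped, and the difference of the means, -0.08, did not pass an exact two-sided permutation test (p = 0.143, where the smallest p for 4 against 4 is 0.0286). On the first component of variation, with 39.1% of the variance of the 8 arrays, DCA arrays scored 23.7, 10.5, -15.9 and 8.09 and control arrays 20.8, -10.2, -3.68 and -33.4, so this axis did not divide the groups. Control 4 and DCA 1 stood at its ends. Genes detected on all arrays of one group and none of the other were few. Agpat1, an enzyme of phospholipid and triglyceride synthesis, was the 1 gene detected on all DCA arrays and no control array. Its control arrays were at 4.46 to 4.63, near the lowest detected levels. The 2 genes detected on all control arrays and no DCA array were Olfr168 and Slc38a9.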

How the data were processed

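Total RNA of mouse liver was hybridised to Illumina bead arrays, 1 array per animal. The main table held, per the file headers, the mean bead intensity of each gene and a detection p-value, as the authors deposited them. Per the submitters' processing notes GenomeStudio was used, with its version, the background handling and any genome build not given in the sources used here. The table has 1 row per gene, so probes of a gene cannot be set against each other, and 22 names damaged by spreadsheet software were restored. A second deposited table of intensity values normalized by the authors served as an alternative.

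Background was corrected with the normexp model of limma 3.58.1 (R 4.3.3) from the detection p-values, fitted on the 13668 rows whose detection p belonged to a single probe, with an offset of 16. Values were put on the log2 scale and quantile-normalized over all 13 arrays. The 8431 genes that at least 4 arrays detected (detection p under 0.05) entered the test, which left out 45 rows of raw intensity over 300. Group means were fitted with lmFit and eBayes over the 13 arrays, and DCA minus control was adjusted by Benjamini-Hochberg over the tested genes. The fit was tested on simulated data with independent noise in each gene, a check that does not cover variation shared across genes. The number of arrays limits the precision. Whether the animals shared litters or cages is not labelled, so the p-values cover the spread between these animals. Array numbers follow the order of the labels and pair nothing.

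The comparison, the 44 gene lists and the single genes were chosen with earlier results of these data known, so no list was tested, and lists are described by counts and medians. Named genes are the 10 of smallest p and up to 5 of largest difference without overlap in each direction, listed single genes, and the 4 of smallest p in each list. Others were chosen after their values were seen, among them Egr1, Spon2, Usp2, Calr, Hspa5, Hsd3b5, Cyp7a1 and Hba-a1. The same holds for Alb, Alas2, Ddit3, Chac1, Trib3, Myd116, Hspa9 and Hspd1. It also holds for the genes detected on all arrays of one group and none of the other. Alternatives changed the background, normalization, filter, model and arrays used. A few named genes are not reported here.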

Additional observations from a re-analysis of the deposited data

Results flagged for a closer look

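Of 79 genes whose values are given, 4 had an array of 4 whose gap to the nearest other was above Dixon's 95% critical value, and chance flags about 1 in 20 groups. Rsad2 on DCA 3 was at 6.39, below 6.59 to 6.61 on the other DCA arrays. Pdk2 on control 2 was at 4.79, below 6.03 to 6.26 on the other controls. Agpat1 on control 2 was at 4.46, below 4.62 to 4.63 on the other controls. Igf2, the fetal growth factor, was at 6.44 on control 4, above 4.63 to 4.81 on the other controls. Over all 8431 genes such a gap was found for 430 genes in DCA (5.10%) and 463 in control (5.49%), shares close to the chance level, with DCA 3 (198 genes) and control 4 (166 genes) the arrays most often apart.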

How the results depend on the processing

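The count of 0 genes past the adjusted threshold in limma held under all 19 alternatives, 17 planned and 2 chosen after seeing the data. Leaving out controls 2 and 4 was among the latter, so where those arrays were the controls furthest from DCA, the difference had to shrink. The smallest adjusted p ranged over them from 0.2998 without control 3 to 0.9999 with the standard background fit, and genes at an unadjusted p under 0.05 ranged from 162 without controls 2 and 4 to 772 without a filter. Against 369 in the main setting there were 217 without control 4, 711 without control 1 and 650 with array weights. The standard background fit gave 328 and the authors' normalized values 372. Of 36 tested single genes 23 changed sign under some alternative, and of 4999 recomputed values 126 moved by more than the spread between arrays, 98 of genes and 28 of lists. The difference in spread between arrays ranged from -0.04 to -0.13, with exact p from 0.1 to 0.571. The p of 0.1, without the brightest array of each group, is the smallest that 3 arrays against 3 allow, and 4 against 2 could not reach 0.05 either. The slide as a block was not run, because the files name no slides. No paired analysis was possible because the labels give the groups no shared replicate numbers. Genes near the lowest detected levels (4.57 to 4.63) have differences that depend on the background correction.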
